A study of Mus musculus with 12 samples.

Results

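Genes of glucose uptake, glycolysis, lactate and pyruvate handling, the pentose phosphate pathway and the hypoxia-inducible factors were examined in mouse bone marrow stem cells separated by flow cytometry into cells with (CD49+) and without (CD49-) CD49 on their surface. The list held 37 genes. A gene took its value from the probe set with the highest mean log2 signal among those that name it as their only symbol, separately on each of 2 Affymetrix chip designs, MOE430A and MOE430B. Of the 37 genes, 32 had a value, out of 18193 genes with such a probe set in the whole series. MOE430A measured 30 of them with 61 probe sets and MOE430B measured 9 with 11 probe sets, and 7 were on both. Gapdh was covered only by the control probe sets of the chips and is given as a description, and Gpi1, Eno1, G6pdx and Pfkfb1 were not analysed here because no probe set carried them as its sole symbol.

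There were 3 CD49+ and 3 CD49- samples, each of about 30 cells at an estimated purity of 97.03%, lysed 0 h after the sort and amplified by PCR, and each sample was hybridised to both designs. Replicate 1 of each group carried the title prefix MZ1484 and replicates 2 and 3 the prefix MZ1468, and these 2 sets are called submissions. The labels used here give no strain, genotype, age or treatment, do not name the integrin alpha subunit that was stained, and do not tell whether replicates were separate animals or sorts. A p-value here therefore sets a difference against the spread of these replicates alone, part of which may be technical. Signals are linear MAS5 values in arbitrary units, and differences are on the scale of log2(signal + pseudocount), with a pseudocount of 27 on MOE430A and 140 on MOE430B. In bulk RNA, fewer cells expressing a gene and less RNA per cell cannot be told apart.

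Glycolysis splits glucose to pyruvate in the cytosol. Lactate dehydrogenase turns pyruvate into lactate, whereas the pyruvate dehydrogenase complex feeds it to the mitochondria unless pyruvate dehydrogenase kinases switch the complex off. Low oxygen stabilises the alpha subunits of the hypoxia-inducible factors, which raise transcription of many glycolytic genes, and mouse haematopoietic stem cells are known for a glycolytic metabolism that depends on Hif1a and on pyruvate dehydrogenase kinases.

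The arrays differed in ways that bear on every value below. A background bound was set for each array at its highest Bacillus control signal, between 77.98 and 148.7 on MOE430A and between 843.8 and 1466 on MOE430B. On MOE430A 39.5% to 61.1% of signals lay above it, and on MOE430B 16.5% to 28.6%. The log2 ratio of the 3′ to the 5′ control probe set was taken for Gapdh and Actb on MOE430A. For Gapdh it ranged from 3.80 in CD49+ replicate 2 to 10.16 in CD49+ replicate 3, and for Actb from 1.39 to 4.31. The 5′ Gapdh signals of CD49+ replicates 1 and 3 (34.33 and 24.45) were under their bounds (148.7 and 83.99), so that their ratios are imprecise. Of the stem cell markers, Kit, Cd34 and Hlf were above the bound on all 6 arrays. Kit was higher in CD49+ samples without overlap, at 334.8, 242.4 and 158.6 against 135.6, 125.7 and 95.94 in CD49- samples. Mecom was at or under the bound everywhere. Slamf1 and Fgd5 were at or under it in all CD49+ samples and above it in all CD49- samples. Kit, Slamf1 and Fgd5 were not called after adjustment. Groups did not overlap for 6.92% of all tested probe sets on MOE430A and 9.26% on MOE430B. Procr was under the bound in CD49+ replicate 2 alone, at 57.11. Cd48 was at or under it in both MZ1484 samples and above it in the 4 MZ1468 samples, with 2329 in CD49+ replicate 2. Summed signals on MOE430A of 7 of 10 stem cell markers were 17140 to 56910 in CD49+ and 17910 to 35900 in CD49- samples. Cd48 is in that sum, and no cell identity was read from the sum. The sums of 5 of 5 megakaryocyte markers were 1181 to 7751 in CD49+ and 3786 to 7856 in CD49- samples. Among these, Itga2b and Vwf were lower in CD49+ samples without overlap, whereas Pf4, Gp1bb and Gp9 overlapped. Itga2b gave 60.26, 39.9 and 37.79 in CD49+ samples, at or under the bound, and 618.9, 157.9 and 591 in CD49- samples. Vwf gave 183.5, 96.82 and 67.37 in CD49+ and 392.9, 608 and 1144 in CD49- samples. Neither was called after adjustment. Of markers of other cells, the erythroid Hba-a1 and Alas2, the B cell genes Ms4a1 and Pax5 and the T cell gene Cd3e were at or under the bound on all arrays. Others were above it on all 6 arrays. The macrophage and granulocyte gene Lyz2 had signals of 31880, 3584 and 2750 in CD49+ and 19730, 8824 and 9975 in CD49- samples. The B cell receptor gene Cd79b had 1558, 8262 and 7125 in CD49+ and 742.8, 1343 and 3612 in CD49- samples, and the T cell gene Cd8a 175.9, 143.8 and 116.3 in CD49+ and 405.7, 135.4 and 181 in CD49- samples. Nkg7, of natural killer cells, and Tfrc, the transferrin receptor, listed here as an erythroid marker, were above it on 5 arrays. Nkg7 had 9318, 3168 and 3704 in CD49+ and 43.43, 1283 and 4415 in CD49- samples, and Tfrc 37.97, 7069 and 7613 in CD49+ and 6688, 6549 and 6118 in CD49- samples. The summed signal of 6 of 8 granulocyte and monocyte markers was 3795 to 44450 in CD49+ and 9594 to 20060 in CD49- samples. That of 5 of 6 B cell markers was 1803 to 8686 in CD49+ and 946.3 to 3956 in CD49- samples, and that of 5 of 7 T and natural killer cell markers 3500 to 9727 in CD49+ and 586.4 to 4749 in CD49- samples. That of 6 of 8 erythroid markers was 391.7 to 8043 in CD49+ and 6596 to 6957 in CD49- samples. Most of the larger erythroid sums was Tfrc, as Hba-a1, Epor, Klf1, Alas2 and Slc4a1 gave at most 220.4 in any sample. The largest granulocyte and monocyte sum was that of CD49+ replicate 1, where Lyz2 gave 31880 and Csf1r 12160. Itgam, Mpo, Elane and Fcgr3 gave at most 178.6 in any sample. The part of other cells in the results was not tested. Itga6, which encodes CD49f, had signals of 1253, 2032 and 5506 in CD49+ samples and of 894, 4680 and 4972 in CD49- samples. Of the genes of integrin alpha 1 to 6 and integrin beta 1, 5 of 7 were tested and 0 called. Itga3 was higher in CD49+ samples without overlap, at 520.2, 340.9 and 326.4 against 137, 260.2 and 239.1 in CD49- samples. The 4 others tested, Itga6 among them, were lower in CD49+ samples with overlapping groups.

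No member differed between CD49+ and CD49- samples beyond the spread of the samples. On MOE430A, 15 members were higher and 15 lower in CD49+ samples, with a median difference of 0.05, and on MOE430B 5 were higher and 4 lower, with a median of 0.14. With single samples left out these medians ranged from -0.16 (without CD49- replicate 1) to 0.11 (without CD49- replicate 3) on MOE430A and from 0.01 (without CD49- replicate 1) to 0.31 (without CD49+ replicate 3) on MOE430B. Of the 25 members tested on MOE430A, 13 were higher and 12 lower in CD49+ samples, with a median of 0.24, and on MOE430B all 9 were tested. Among all tested probe sets 45.6% on MOE430A and 51.9% on MOE430B were higher in CD49+ samples, with medians of -0.07 and 0.03. The limma test, adjusted over all tested probe sets of a design, called 0 of 25 tested members on MOE430A and 0 of 9 on MOE430B, and 0 on either design had an unadjusted p under 0.05. Over all tested probe sets the adjusted threshold of 0.05 called 0% on both designs, and an unadjusted p under 0.05 was reached by 2.4% on MOE430A and 3.68% on MOE430B. The groups did not overlap for 0 of 30 members on MOE430A (0 of the 25 tested) and for 1 of 9, Pfkp, on MOE430B, against 6.92% and 9.26% of all tested probe sets. With the submission as a block, Ldha alone among the tested members of MOE430A reached an unadjusted p of 0.0445 (limma adjusted p = 0.857). An unadjusted p under 0.05 was reached in that fit by 469 of 11313 tested probe sets, so that 1 of 25 members is near the background.

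**Figure D1:**
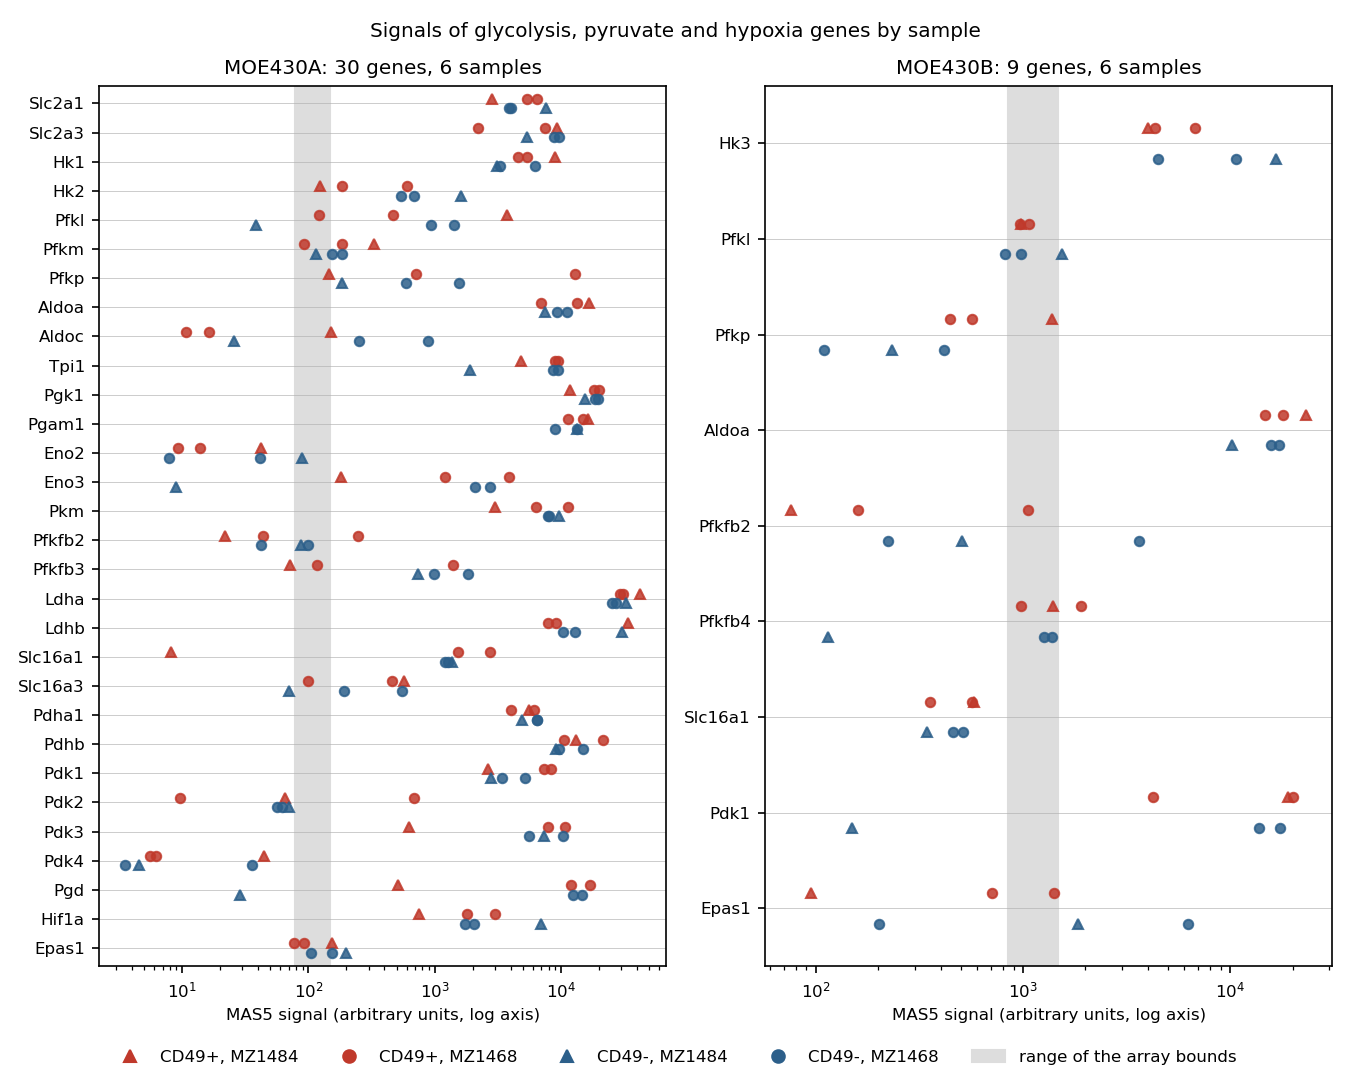
Signals of the members by sample on a log axis, 30 genes on MOE430A and 9 on MOE430B, with 1 point per sample, colour for the CD49 group, shape for the submission, and a grey band for the range of the background bounds. CD49+ points (drawn just above each line) and CD49- points overlap for every gene other than Pfkp on MOE430B, and 16 genes on MOE430A lie above the bound on all 6 arrays.

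Glucose enters blood cells through the facilitative transporters encoded by Slc2a1 and Slc2a3 and is trapped by the hexokinases. Slc2a3 (MOE430A) had signals of 9351, 7440 and 2227 in CD49+ samples, against 5417, 9714 and 8791 in CD49- samples. CD49+ replicate 3 was the lowest of the 6, and the other CD49+ samples lay within the CD49- range, with a difference of -0.52 ± 0.67 (SE, n = 3 each, limma adjusted p = 1.00). Slc2a1 ranged from 2852 to 6527 in CD49+ and from 3873 to 7584 in CD49- samples, a difference of -0.08 ± 0.63 that turned positive with quantile normalization (0.05) or median centring (0.04). Hk2 encodes a hexokinase and is induced by hypoxia in many cells. It had signals of 123.9, 601.2 and 183.8 in CD49+ samples and of 1625, 545.4 and 690.3 in CD49- samples. Its groups met only through CD49+ replicate 2, and the difference was -1.70 ± 1.00 (SE, limma adjusted p = 1.00), with -3.45 for the MZ1484 pair and -0.82 for MZ1468. The ubiquitous Hk1 differed by 0.59 ± 0.61, and Hk3, the hexokinase of myeloid cells measured on MOE430B, by -0.91 ± 0.83. A second Hk1 probe set was bright in CD49+ replicate 2 alone, at 2669 against at most 50.56 in the other 5 samples.

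In the upper steps of glycolysis, phosphofructokinase commits sugar to the pathway and aldolase splits it. Aldoa (MOE430A) gave 16690, 13550 and 6982 in CD49+ samples, against 7454, 9415 and 11240 in CD49- samples. The groups overlapped widely, with a difference of 0.33 ± 0.43 (SE, limma adjusted p = 1.00) on MOE430A and 0.38 ± 0.70 on MOE430B, where the signals were 23250, 18020 and 14710 in CD49+ and 10220, 17210 and 15750 in CD49- samples. The CD49+ samples had the same order on both designs, and CD49- replicate 1 was the lowest of its group on both. Among the phosphofructokinase subunits, Pfkp, the platelet form, gave 1384, 442.8 and 564.4 on MOE430B in CD49+ samples and 233.5, 108.9 and 417.3 in CD49- samples. All CD49+ values were above all CD49- values, yet 1 of the 6 arrays, that of CD49+ replicate 1, exceeded its bound, and the difference was 1.20 ± 0.54 (SE, limma adjusted p = 0.999). On MOE430A the brighter Pfkp probe set gave 145.1, 12930 and 714.5 in CD49+ samples and 186.4, 598.6 and 1568 in CD49- samples. There CD49+ replicate 2 stood far above the other 5, and the difference was 0.99 ± 1.74 (SE), or -0.74 without that sample. Pfkl, the liver form, differed by 0.54 ± 1.67 on MOE430A, with 5.85 for the MZ1484 pair and -2.12 for MZ1468, and by -0.09 ± 0.38 on MOE430B. Pfkm, the muscle form, differed by 0.24 ± 0.62. Aldoc, the brain aldolase, was under the filter on low signals and exceeded the bound on 1 CD49+ and 2 CD49- arrays.

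Triose phosphate isomerase closes the upper steps of the pathway, and phosphoglycerate kinase, phosphoglycerate mutase and enolase carry the lower steps up to pyruvate kinase. Pgk1 was bright in every sample, at 11760, 19920 and 18300 in CD49+ samples and 15460, 19730 and 18830 in CD49- samples, a difference of -0.14 ± 0.27 (SE). Tpi1 gave 4803, 9059 and 9430 in CD49+ samples, against 1901, 9511 and 8680 in CD49- samples, a difference of 0.46 ± 0.74. For both genes the MZ1484 samples were the lowest, and the MZ1468 samples of both groups lay close together. Pgam1 ranged from 11430 to 16470 in CD49+ and from 8945 to 13480 in CD49- samples, a difference of 0.26 ± 0.31. Pkm, the pyruvate kinase of most dividing cells, gave 2993, 11350 and 6413 in CD49+ samples and 9732, 7855 and 8021 in CD49- samples. Its CD49- values were tight and its CD49+ values surrounded them, with a difference of -0.50 ± 0.58 (SE) that was 0.01 without CD49+ replicate 1. Eno3, the muscle enolase, gave 179.9, 3926 and 1217 in CD49+ and 8.968, 2100 and 2739 in CD49- samples, a difference of 0.76 ± 1.97. Eno2, the neuronal enolase, was at or under the bound on every array.

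Gapdh, which oxidises glyceraldehyde phosphate, was read by control probe sets only. The 3′ set on MOE430A gave 36940, 25940 and 28030 in CD49+ samples and 29960, 31482 and 28790 in CD49- samples. The set in the middle of the transcript gave 1786, 21870 and 1772 in CD49+ samples and 893.5, 5322 and 7102 in CD49- samples, and CD49+ replicate 2 was the highest there. The 3′ signals of the 6 samples lay within a narrow range, with CD49+ replicate 1 highest, and the same sample was highest for Aldoa, Ldha and Ldhb. Of the 30 members on MOE430A it was the highest of the 6 samples for 9 and the lowest for 11, among them Pgk1, Pkm and Slc2a1.

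The bifunctional enzymes encoded by the Pfkfb genes make and remove the sugar phosphate that activates phosphofructokinase. Pfkfb3, the form with the strongest kinase activity and a known hypoxia target, gave 71.51, 116.2 and 1389 in CD49+ samples and 745.9, 1842 and 999.1 in CD49- samples. In CD49+ replicate 1 it was under the bound and in CD49+ replicate 3 it lay within the CD49- range, and the difference was -2.07 ± 1.26 (SE, limma adjusted p = 1.00), the largest negative one among the tested members. It was negative both between the MZ1484 samples (-2.97) and within MZ1468 (-1.62). The second Pfkfb3 probe set, under the filter, differed by -0.12. Pfkfb2 on MOE430B differed by -1.17 ± 1.03 and was above its bound on 1 array, and Pfkfb4 on MOE430B differed by 0.90 ± 0.75, with 2.59 for the MZ1484 pair and 0.05 for MZ1468.

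Lactate dehydrogenase is a tetramer of the subunits encoded by Ldha, which predominate where lactate is made, and Ldhb, which predominate in oxidative tissue. Ldha was bright in every sample, at 42650, 31080 and 29650 in CD49+ samples against 32780, 25540 and 27640 in CD49- samples. It was higher in CD49+ samples within both submissions (0.38 and 0.19), with a difference of 0.25 ± 0.18 (SE, limma adjusted p = 1.00). Ldhb gave 34020, 7872 and 9208 in CD49+ samples and 30400, 10380 and 12910 in CD49- samples, a difference of -0.24 ± 0.64. The MZ1484 samples of both groups were high and the 4 MZ1468 samples were low. Lactate and pyruvate cross the cell membrane through monocarboxylate transporters. Slc16a1 was at 8.131 in CD49+ replicate 1 and between 1217 and 2729 in the other 5 samples on MOE430A, a difference of -1.30 ± 1.71 that was 0.66 without that sample, whereas on MOE430B it was under the bound everywhere. Slc16a3, the exporter induced by hypoxia, differed by 0.54 ± 0.98.

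The core of the hypoxia response element, the site that the factors bind, is ACGTG. It was searched in the promoters, on both strands in the window from 250 bases before to 50 bases after each RefSeq start (mouse build GRCm38.p6), with overlapping matches on the 2 strands, as in CACGTG, counted once. Of the 37 listed genes 35 had a window, and 21 of these (60%) held the core in at least 1 window, against 5886 of 27025 genes (21.8%) overall. Windows of these genes also held more CG dinucleotides, a median of 18 against 7, and of all windows with at least 18 the share with the core was 28.9%. Counted by window, as that share is, the core was in 25 of 55 windows of the listed genes (45.5%), against 19.6% of all windows. Gene windows can overlap, a match describes letters and not a bound site, and no conclusion on the factor follows from a window without one. The promoters of Ldha, Pgk1 and Slc16a3 are printed as examples with the core in capitals (3, 2 and 2 sites), and those of Ldhb and Eno3, which parted the submissions, as examples without one (0 sites). They lie at chr7:46845554-46845853 (Ldha, + strand, the first of 2 windows), chrX:106186850-106187149 (Pgk1, + strand), chr11:120948817-120949116 (Slc16a3, + strand), chr6:142507908-142508207 (Ldhb, - strand) and chr11:70656926-70657225 (Eno3, + strand).
Ldha: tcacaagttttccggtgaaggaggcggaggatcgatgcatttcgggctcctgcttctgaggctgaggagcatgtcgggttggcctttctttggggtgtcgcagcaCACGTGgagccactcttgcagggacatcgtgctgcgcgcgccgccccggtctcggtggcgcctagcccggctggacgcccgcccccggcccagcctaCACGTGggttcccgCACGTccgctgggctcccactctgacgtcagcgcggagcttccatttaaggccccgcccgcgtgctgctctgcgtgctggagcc
Pgk1: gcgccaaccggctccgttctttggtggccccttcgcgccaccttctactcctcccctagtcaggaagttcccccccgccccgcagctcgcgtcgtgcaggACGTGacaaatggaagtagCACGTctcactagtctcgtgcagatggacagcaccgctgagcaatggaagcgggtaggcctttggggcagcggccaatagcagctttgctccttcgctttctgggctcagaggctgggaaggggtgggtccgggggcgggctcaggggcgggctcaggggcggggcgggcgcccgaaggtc
Slc16a3: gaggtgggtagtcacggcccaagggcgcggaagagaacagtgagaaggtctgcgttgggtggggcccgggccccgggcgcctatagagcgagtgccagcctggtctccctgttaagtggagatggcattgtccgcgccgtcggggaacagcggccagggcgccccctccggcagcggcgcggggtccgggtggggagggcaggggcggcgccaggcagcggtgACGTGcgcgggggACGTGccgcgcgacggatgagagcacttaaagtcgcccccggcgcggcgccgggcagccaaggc
Ldhb: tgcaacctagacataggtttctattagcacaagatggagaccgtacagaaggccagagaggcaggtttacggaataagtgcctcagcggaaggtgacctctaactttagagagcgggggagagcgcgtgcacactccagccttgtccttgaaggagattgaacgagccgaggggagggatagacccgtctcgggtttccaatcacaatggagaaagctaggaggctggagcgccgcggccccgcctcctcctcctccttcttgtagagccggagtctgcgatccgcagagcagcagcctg
Eno3: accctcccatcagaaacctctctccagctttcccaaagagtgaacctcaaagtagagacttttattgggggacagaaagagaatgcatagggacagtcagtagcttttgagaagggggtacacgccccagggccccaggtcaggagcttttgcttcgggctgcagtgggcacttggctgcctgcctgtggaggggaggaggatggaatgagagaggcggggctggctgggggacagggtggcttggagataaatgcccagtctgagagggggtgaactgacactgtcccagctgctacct
Ldha, with 3 sites, Pgk1, with 2, and Ldhb, with 0, were all above the bound on all 6 MOE430A arrays. Eno3, with 0 sites, was under it in CD49- replicate 1 alone. Slc16a3, also with 2 sites, gave 576.9, 99.78 and 460.2 in CD49+ samples and 70.51, 190.5 and 547.8 in CD49- samples, at or under the bound on 1 array of each group.

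Pyruvate enters the mitochondrial cycle through pyruvate dehydrogenase, whose catalytic subunits are encoded by Pdha1 and Pdhb. Pdhb gave 13290, 21670 and 10680 in CD49+ samples, against 9193, 9719 and 14980 in CD49- samples. The groups overlapped, with a difference of 0.40 ± 0.37 (SE, limma adjusted p = 1.00) that was positive within both submissions (0.53 and 0.33). Pdha1 ranged from 4070 to 6152 in CD49+ and from 4926 to 6528 in CD49- samples, a difference of -0.19 ± 0.51. The second Pdha1 probe set gave 5190, 913.9 and 3284 in CD49+ samples and 17.24, 1373 and 2431 in CD49- samples, so that CD49- replicate 1 had no signal above its bound there while the first set read 4926 in it.

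The kinases that inactivate pyruvate dehydrogenase varied widely between samples. Pdk1, the form induced by Hif1a, gave 2653, 7413 and 8352 on MOE430A in CD49+ samples and 2788, 5229 and 3401 in CD49- samples, a difference of 0.57 ± 0.70 (SE, limma adjusted p = 1.00). On MOE430B it gave 19000, 4241 and 19980 in CD49+ samples and 149.8, 13710 and 17430 in CD49- samples, a difference of 1.53 ± 1.74 (SE, limma adjusted p = 0.999). The probe sets did not order the samples alike: CD49- replicate 1 was under its bound on MOE430B, and on MOE430A it was second lowest. Pdk3 gave 628.8, 7862 and 10740 in CD49+ samples and 7319, 5632 and 10400 in CD49- samples. CD49+ replicate 1 was far below the rest, and the difference of -0.99 ± 1.08 (SE) became 0.29 without it. Pdk2 gave 65.89, 9.584 and 693.5 in CD49+ samples and 70.16, 56.26 and 62.11 in CD49- samples, above the bound in CD49+ replicate 3 alone. Pdk4, the form that rises on fasting, gave 44.17, 6.194 and 5.557 in CD49+ samples and 4.582, 3.532 and 35.8 in CD49- samples, at or under the bound on every array. Pdk2 and Pdk4 were both under the filter and were not tested.

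Pgd, phosphogluconate dehydrogenase, makes NADPH and pentose phosphate from glucose. It gave 509.4, 17080 and 12040 in CD49+ samples and 28.69, 14720 and 12600 in CD49- samples, a difference of 1.14 ± 2.37 (SE, limma adjusted p = 1.00). The 4 MZ1468 samples were alike and both MZ1484 samples were low, and the CD49 difference within MZ1468 was 0.07.

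Of the hypoxia-inducible factors, Hif1a gave 754, 3028 and 1799 in CD49+ samples and 7014, 2051 and 1755 in CD49- samples. CD49+ replicate 1 was the lowest and CD49- replicate 1 the highest, and the 4 others mixed the groups, with a difference of -0.86 ± 1.00 (SE, limma adjusted p = 1.00). For the MZ1484 pair it was -3.17, and for MZ1468 0.30. The 3 dimmer Hif1a probe sets differed by 0.94, 0.39 and -0.04, so that the direction was not shared among them. Epas1, which encodes the alpha subunit of the second factor and is strong in endothelium, was near the bound on MOE430A, at 154.1, 92.33 and 77.13 in CD49+ samples and 199.8, 153.3 and 104.9 in CD49- samples. On MOE430B it gave 95.15, 705.9 and 1403 in CD49+ samples and 1836, 202.7 and 6283 in CD49- samples. Both designs gave lower means in CD49+ samples, by -0.42 ± 0.50 and -1.28 ± 1.18 (SE), with overlapping groups.

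**Figure D2:**
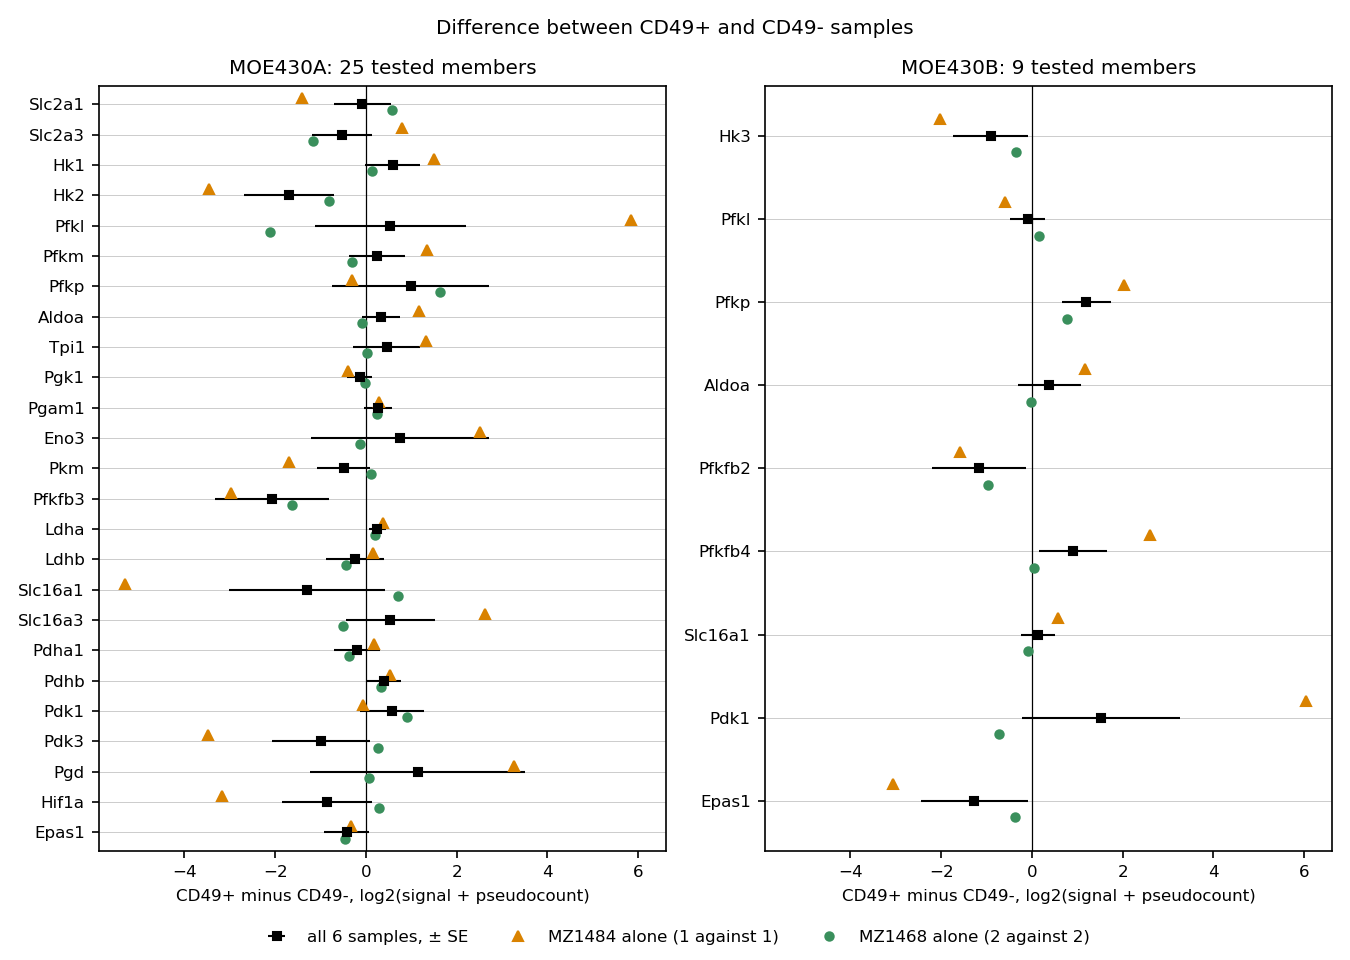
Difference of CD49+ minus CD49- samples in log2(signal + pseudocount) for the 25 tested members on MOE430A and the 9 on MOE430B, as the estimate over all 6 samples with its SE (squares), the difference between the MZ1484 samples (triangles) and the difference of means within MZ1468 (circles). The triangles reach from -5.31 for Slc16a1 to 5.85 for Pfkl on MOE430A, and for 15 of the 25 members there the 2 submissions lie on opposite sides of 0.

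Within the submissions the CD49 difference often had opposite signs. Of the 30 members on MOE430A, 6 were higher in CD49+ samples in both submissions (Hk1, Tpi1, Pgam1, Ldha, Pdhb and Pgd), 5 were lower in both (Hk2, Pgk1, Eno2, Pfkfb3 and Epas1) and 19 changed sign. On MOE430B, 2 were higher in both (Pfkp and Pfkfb4), 3 were lower in both (Hk3, Pfkfb2 and Epas1) and 4 changed sign. Opposite signs were seen for 15 of 25 tested members on MOE430A and 4 of 9 on MOE430B, against 51.3% and 49.9% of all tested probe sets, so that the members' shares are near the background. The interaction of CD49 group and submission had an unadjusted p under 0.05 for 7 of 25 tested members on MOE430A (Slc2a1, Pfkl, Pkm, Slc16a1, Pdk3, Pgd and Hif1a) and for 2 of 9 on MOE430B (Pfkfb4 and Pdk1), against 20.5% and 11.6% of all tested probe sets. The limma test called 0 of these members after adjustment, where 2.17% of all tested probe sets were called on MOE430A and 0% on MOE430B. Pfkl had the smallest p, 0.00394 (adjusted p = 0.0829), with signals of 3730, 121.7 and 472.1 in CD49+ samples and 38.18, 1423 and 942.6 in CD49- samples. The MZ1484 side of each interaction is 1 sample against 1.

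Between the submissions, Pgd and Eno3 fell and Ldhb rose in MZ1484 samples relative to MZ1468 samples, in a fit with the CD49 group as a term. The limma test called these 3 of the 25 tested members on MOE430A, against 7.42% of all tested probe sets, and 0 of 9 on MOE430B, against 0.4%. An unadjusted p under 0.05 was reached by 6 of 25 members on MOE430A, against 26.5%, and by 0 of 9 on MOE430B, against 14.9%. The submissions did not overlap for 9 of the 25 tested members on MOE430A, against 37.4%, and for 0 of 9 on MOE430B, against 25.8%. These shares are near or under those of all probe sets and are no result about the members. Of the 30 members on MOE430A 12 were higher in MZ1484 and 18 lower, with a median of -0.24, and on MOE430B 3 were higher and 6 lower, with a median of -0.09. Of the 25 tested members on MOE430A, 10 were higher and 15 lower in MZ1484, with a median of -0.20. Among all tested probe sets 39.8% and 47.4% were higher in MZ1484, with medians of -0.43 and -0.06. The median of the 30 members on MOE430A was 0.02 after median centring. On each design the scan day coincided with the submission, so that the cells, the amplification and the hybridisation of a submission cannot be told apart.

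Pgd had signals of 509.4 and 28.69 in the MZ1484 samples (CD49+ and CD49-), against 17080, 12040, 14720 and 12600 in the MZ1468 samples. The groups were far apart, with a difference of -6.34 ± 0.86 (SE, n = 2 and 4, limma adjusted p = 0.0217). All 4 Pgd probe sets passed, with differences of -6.34, -6.30, -4.91 and -6.41. Eno3 had signals of 179.9 and 8.968 in MZ1484 samples, against 3926, 1217, 2100 and 2739 in MZ1468 samples, a difference of -4.75 ± 0.99 (SE, limma adjusted p = 0.0428). For Pgd and Eno3 the CD49- sample of MZ1484 was under the bound and the CD49+ sample above it. Ldhb had signals of 34020 and 30400 in MZ1484 samples, against 7872, 9208, 10380 and 12910 in MZ1468 samples, a difference of 1.69 ± 0.25 (SE, limma adjusted p = 0.0244). Its 4 probe sets all passed, with differences of 1.44 to 1.76. Without CD49+ replicate 3, CD49- replicate 2 or CD49- replicate 3 all 3 calls were lost, with adjusted p-values of at least 0.0647, and Eno3 also lost its call with the median signal as pseudocount (0.0571), with no filter (0.0727) and with quantile normalization (0.0755), as Ldhb did without the mean-variance trend (0.0871). Eno3 lost its call also without CD49+ replicate 2 (0.0587) or CD49- replicate 1 (0.0906), and Ldhb without CD49+ replicate 1 (0.0554).

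The other members with the smallest p for the submission differed less. Tpi1 had signals of 4803 and 1901 in MZ1484 samples, against 9059, 9430, 9511 and 8680 in MZ1468 samples, a difference of -1.59 ± 0.46 (SE, n = 2 and 4, limma adjusted p = 0.0915). Its 3 probe sets all kept the submissions apart, and without CD49+ replicate 1 the difference was -2.24 (limma adjusted p = 0.0411), in a fit that leaves 1 MZ1484 sample, assumed to vary like the MZ1468 samples. Pgk1 had 11760 and 15460 in MZ1484 samples, against 19920, 18300, 19730 and 18830 in MZ1468 samples, a difference of -0.51 ± 0.19 (limma adjusted p = 0.153) that lies close to the median shift of all probe sets. Ldha had 42650 and 32780 in MZ1484 samples, against 31080, 29650, 25540 and 27640 in MZ1468 samples, a difference of 0.40 ± 0.11 (limma adjusted p = 0.0793). Both lactate dehydrogenase subunits were thus brightest in the MZ1484 samples, without overlap, with a call for Ldhb alone, and the difference between the subunits was not tested. Hif1a differed by 0.14 ± 0.97 on its brightest probe set, while its second probe set gave 25.29 and 3.652 in MZ1484 samples, both under the bound, against 1761, 251.4, 423.8 and 239.4 in MZ1468 samples. It was at least 3.85-fold lower in MZ1484 samples (limma adjusted p = 0.0574) and was not called.

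**Figure D3:**
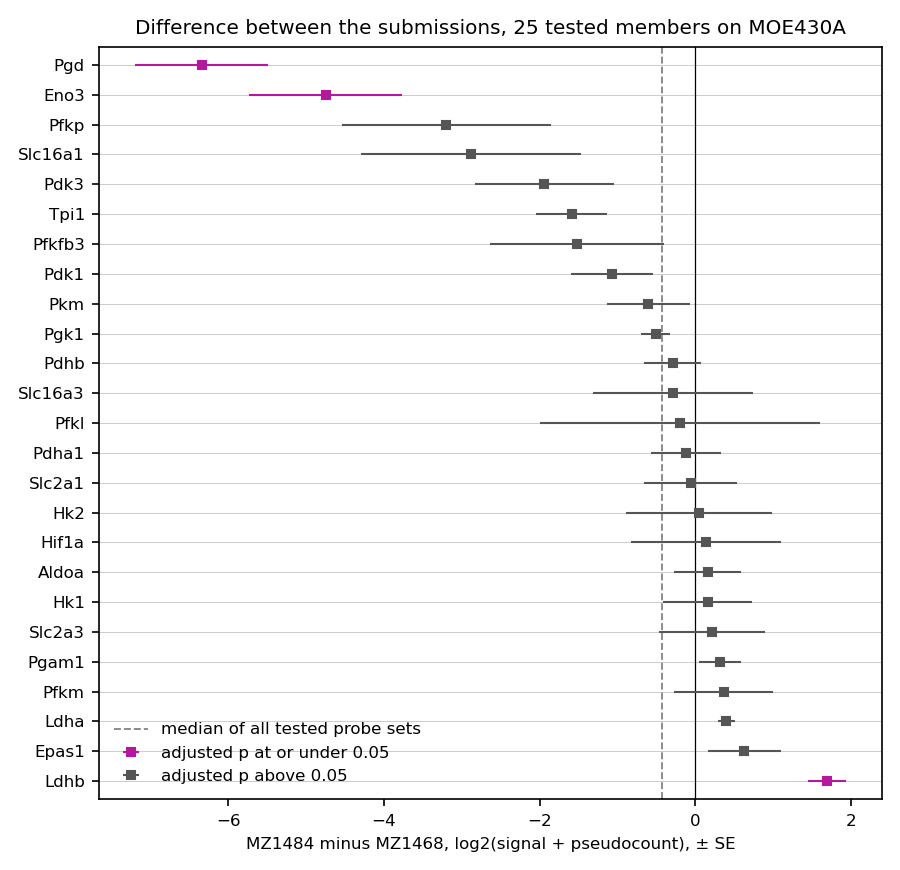
Difference of MZ1484 minus MZ1468 samples in log2(signal + pseudocount), with SE, for the 25 tested members on MOE430A in order of size, with the CD49 group as a term and the median of all tested probe sets as a dashed line. Pgd (-6.34), Eno3 (-4.75) and Ldhb (1.69) are the members with an adjusted p at or under 0.05.

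**Figure D4:**
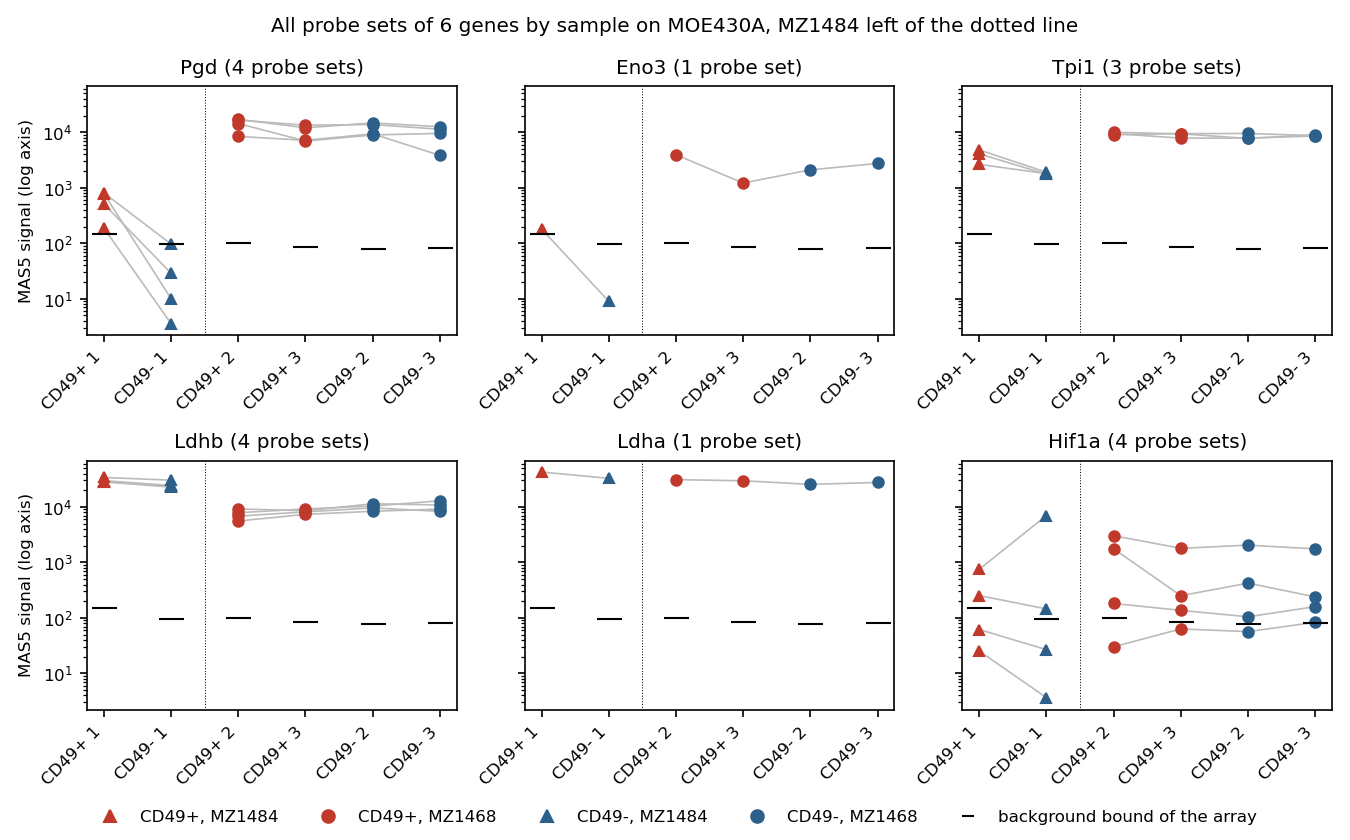
Signals of all probe sets of Pgd, Eno3, Tpi1, Ldhb, Ldha and Hif1a on MOE430A by sample on a log axis, with lines joining a probe set within a submission, MZ1484 left of the dotted line, and a dash for the background bound of each array. The 4 Pgd probe sets are low and the 4 Ldhb probe sets high in both MZ1484 samples, whereas the 4 Hif1a probe sets do not share a pattern.

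Other genes of these pathways, from lists chosen with earlier results of these data known, showed no called CD49 difference either. Of 21 tested genes of hexose and further glycolytic reactions (34 listed, 31 with a value), 5 were higher and 16 lower in CD49+ samples, with a median of -0.50 and 0 called by limma. Slc2a9, a transporter of urate and hexoses, gave 54.8, 86.14 and 30.61 in CD49+ samples, at or under the bound on all 3 arrays, against 760.5, 79.49 and 673.3 in CD49- samples. By group means and the bound it was at least 3.19-fold lower in CD49+ samples (limma adjusted p = 1.00). The groups overlapped, since CD49- replicate 2 lay below CD49+ replicate 2. Fbp1, the bisphosphatase of gluconeogenesis, differed by -3.01 ± 1.54 (SE). Of 12 tested genes of pyruvate import and the pyruvate dehydrogenase complex (16 listed, 15 with a value), 8 were higher and 4 lower, with a median of 0.16 and 0 called. The phosphatase Pdp1, which switches the complex back on, differed by -2.25 ± 1.01 on MOE430B, and Dlat, its acetyltransferase, by 1.91 ± 1.30. Of 9 tested pentose phosphate genes (10 listed, 10 with a value), 5 were higher and 4 lower, with a median of 0.10 and 0 called. The nucleotide precursor synthetase Prps1 differed by 0.78 ± 0.48 and the epimerase Rpe by -1.78 ± 1.29.

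Of 11 tested regulators of the hypoxia-inducible factors (15 listed, 15 with a value), 4 were higher and 7 lower in CD49+ samples, with a median of -0.29 and 0 called. Hif1an, which encodes an oxygen sensor that blocks the factors, differed by -1.30 ± 0.68 on MOE430B (limma adjusted p = 0.999), where it exceeded the bound on 1 array. Meis1, a stem cell transcription factor reported to act upstream of Hif1a in mouse stem cells, differed by 1.52 ± 0.90. Of 14 tested genes often used as targets of the factors outside glycolysis (23 listed, 20 with a value), 8 were higher and 6 lower, with a median of 0.12 and 0 called. Ndrg1, a stress-responsive gene, gave 14910, 4936 and 7315 in CD49+ samples, against 293, 3112 and 1974 in CD49- samples. Its groups did not overlap, and the difference was 2.69 ± 1.05 (SE, limma adjusted p = 1.00). Ero1a, an oxidase of the endoplasmic reticulum, went the other way, with 36.49, 569.6 and 3741 in CD49+ samples and 2791, 7169 and 4714 in CD49- samples, a difference of -3.13 ± 1.55 (limma adjusted p = 1.00).

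Between the submissions 5 of 55 tested pathway genes were called on MOE430A and 0 of 12 on MOE430B, against 7.42% and 0.4% of all tested probe sets, so that the share is near the background and says nothing about the lists. Relative to MZ1468 samples, Galm, which converts the anomers of galactose, rose in MZ1484 samples by 5.37 ± 0.98 and Fbp1 by 3.83 ± 0.74 (SE, limma adjusted p = 0.0325 and 0.0369). Me2, the mitochondrial malic enzyme, was at or under the bound in both MZ1484 samples and at least 6.28-fold lower there (limma adjusted p = 0.039), and H6pd, which starts the pentose phosphate route in the endoplasmic reticulum, at least 13.2-fold lower (0.0291). Taldo1, the transaldolase of the pentose phosphate pathway, fell with signals of 580.9 and 435.7 in MZ1484 samples, against 17050, 5795, 5622 and 9514 in MZ1468 samples (-4.01 ± 0.69, SE, limma adjusted p = 0.0295). Without CD49+ replicate 1, CD49+ replicate 3, CD49- replicate 2 or CD49- replicate 3 all 5 calls were lost, with limma adjusted p-values of 0.0516 to 0.139, and with no filter those of Galm, Fbp1, Me2 and H6pd (0.0562 to 0.0803). With the median signal as pseudocount those of Fbp1, Me2 and H6pd were lost (0.0643, 0.0697 and 0.0583), with a pseudocount of 1 that of Galm (0.0502), and without the CD49 term that of Fbp1 (0.133). Those of Galm, Fbp1 and Me2 were also lost without CD49- replicate 1 (0.0638 to 0.0866), and that of Taldo1 without CD49+ replicate 2 (0.0515). Pgd, H6pd and Taldo1, 3 genes of the pentose phosphate pathway, were thus low in the MZ1484 samples, among 10 tested genes of that pathway with Pgd included. They were picked from these lists by their calls, and nothing particular to the pathway was tested.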

How the data were processed

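Members, gene lists and the naming rule were chosen with earlier results of these data known. Per the submitters' processing notes, the authors made the deposited values with MAS5: linear signal intensity, 1 value per probe set, without detection calls and with MAS5 settings not given in the sources. No scaling was added, since a trimmed mean (2%) was alike on all 12 arrays. The small number of arrays limits the precision. Symbols came from the platform annotation, in which 20380 of 22690 probe sets on MOE430A and 14661 of 22575 on MOE430B had 1 symbol.

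A pseudocount, the 25th percentile of the design's signals, was added before taking log2, which understates changes of dim genes. Probe sets in the brighter part of their design, from the median of the mean log2 values upward (11313 and 11256), entered the test in R 4.3.3 with limma 3.58.1 (lmFit, eBayes with a mean-variance trend), two-sided, with Benjamini-Hochberg adjustment within a design and a threshold of 0.05. The designs were scaled and tested separately. SE is the moderated error of the fit. The script was tested on simulated data. Where a gene was at or under the bound on all arrays of the dimmer group, the fold is the brighter group's mean log2 signal over the mean of the higher of bound and signal, written "at least".

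Values of every sample are given for members with groups that did not overlap or an unadjusted p under 0.05, the 6 with the smallest submission p, the member of each role with the smallest CD49 p, and Hif1a, Epas1, Gapdh, Ldha, Ldhb, Pdk1 to Pdk4 and Pkm. Of each pathway list the 2 genes with the smallest CD49 p are named, and the 5 called between submissions were added after their values were seen. The values in every sample of further genes and probe sets (Pfkl, Slc16a3, Pfkp and Aldoa on both designs, the second sets of Pdha1 and Hif1a) were also chosen after they were seen. Promoter windows are those of RefSeq for GRCm38.p6. Alternatives changed the pseudocount, the filter, the scaling, the trend, the covariates, the bound and the samples.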

Additional observations from a re-analysis of the deposited data

Results flagged for a closer look

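Among the 4 MZ1468 samples, 39 sets of member values were searched for a sample that stood apart by Dixon's criterion on the log2 scale, and 2 had one. Chance gives about 1 in 20. For Pdha1 on MOE430A, CD49+ replicate 2, at 4070, lay below the other 3 MZ1468 samples, at 6152, 6528 and 6461, with a gap of 0.874 of the range. For Pdk4 on MOE430A, CD49- replicate 3, at 35.8, lay above the other 3, at 6.194, 5.557 and 3.532, with a gap of 0.884 of the range, and all 4 signals were at or under the background bound.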

How the results depend on the processing

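The precision is limited by 3 samples a group, by signals near the bound (on MOE430B 2 of 9 members exceeded it on all arrays, or 4 with the median Bacillus control as bound), and by the MZ1484 set of 2 samples. Scan day coincided with submission on each design, so that the planned block by scan could not be run apart from the submission. No paired analysis was run, because the labels do not say that CD49+ and CD49- samples with the same replicate number belong together. The submission served as the block, which left 0 members called for the CD49 difference. Every alternative left 0 members called for that difference, and members with an unadjusted p under 0.05 numbered 1 on MOE430A with the block or without CD49+ replicate 3, 1 on MOE430B without CD49+ replicate 2, and 0 otherwise (0 to 1 with single samples left out). Over all tested probe sets that count was 272 on MOE430A and 655 with no filter, 80 in the top 25%, 469 with the block, 500 in MZ1468 alone and 217 to 510 with single samples left out. On MOE430B it was 414, and 977, 192 and 630 with no filter, in the top 25% and in MZ1468 alone, and 351 to 622 with single samples left out. The members' median CD49 difference was -0.16 to 0.11 on MOE430A and 0.01 to 0.31 on MOE430B with single samples left out, and -0.085 on MOE430B in MZ1468 alone.

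With MZ1468 alone the CD49 difference on MOE430A turned sign for Slc2a1 (0.58), Pfkl (-2.12), Pfkm (-0.31), Aldoa (-0.08) and Eno3 (-0.13). It did so also for Pkm (0.10), Slc16a1 (0.70), Slc16a3 (-0.51), Pdk3 (0.26) and Hif1a (0.30). The untested Pfkfb2 (0.58) and Pdk4 (-0.41) turned too, as did Pfkl (0.15), Aldoa (-0.016), Slc16a1 (-0.085) and Pdk1 (-0.73) on MOE430B. That of Slc2a1 turned also with quantile normalization (0.049) and median centring (0.041). With single samples left out the CD49 difference on MOE430A ranged across 0 for Slc2a1 (-0.32 to 0.27), Slc2a3 (-0.92 to 0.11), Pfkl (-0.86 to 1.60) and Pfkm (-0.15 to 0.65). The same held for Pfkp (-0.74 to 2.38), Tpi1 (-0.29 to 0.86), Pgk1 (-0.29 to 0.092), Eno3 (-1.27 to 1.90) and Pkm (-0.95 to 0.006). It held for Ldhb (-0.91 to 0.22), Slc16a1 (-2.49 to 0.66), Slc16a3 (-0.082 to 1.24), Pdk3 (-1.73 to 0.29) and Pgd (-1.51 to 2.72). The untested Pfkfb2 (-0.76 to 0.48), Pdk2 (-0.62 to 1.53) and Pdk4 (-0.26 to 0.45) crossed 0 too. None of these differences was called.

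For the submission, 839 probe sets were called on MOE430A, 559 with the median signal as pseudocount, 319 with no filter and 0 to 1371 with single samples left out, 0 without CD49+ replicate 3, CD49- replicate 2 or CD49- replicate 3. On MOE430B 45 were called, 95 with a pseudocount of 1, 12 with the median signal, 149 in the top 25%, 18 with median centring, 176 without the trend, 148 without the CD49 term and 0 to 28 with single samples left out. Members called on MOE430A numbered 0 to 4 with single samples left out. Without CD49+ replicate 1 or CD49- replicate 1 MZ1484 has 1 sample, which the fit assumes to vary like the others. The members' median on MOE430A was -0.24, and -0.081 with quantile normalization, 0.019 with median centring and -0.45 to -0.12 with single samples left out, and on MOE430B it was -0.38 to 0.025. The interaction was called for 245 probe sets on MOE430A, 31 with no filter, 734 in the top 25%, 86 with quantile normalization, 0 without the trend and 0 to 1953 with single samples left out. The causes were not tested.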
